A study of Homo sapiens with 4 samples.

Results

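Replacement histone variants are histones that are made also outside S phase and can be put into nucleosomes without DNA replication, in place of the histones of the HIST clusters. The rows of 9 such genes were taken from the expression table by gene name, out of 26733 genes. They were the linker histone genes H1F0 (H1.0) and H1FX (H1.10), the H2A variant genes H2AFX (H2A.X), H2AFZ and H2AFV (both H2A.Z), H2AFJ (H2A.J) and H2AFY (macroH2A1), and the H3.3 genes H3F3A and H3F3B. All samples were Jurkat cells, an established human line of T-cell acute lymphoblastic leukaemia (T-ALL). Polyadenylated RNA was sequenced from 2 libraries of cells given GNE987 for 24 h, with a labelled dose of 25 nmol and no volume, and from 2 libraries of cells left without it. GNE987 is a degrader: 1 end binds BET bromodomain proteins and the other recruits the ubiquitin ligase VHL, which marks them for destruction. The labels name no vehicle in the untreated cells.

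As background, linker histones bind DNA at the entry of the nucleosome and compact chromatin, and H1.0 is known to accumulate in cells that stop dividing or differentiate. H2A.X carries the phosphorylation site that marks DNA breaks, H2A.Z sits beside transcription start sites, macroH2A1 carries a large globular domain and is enriched in silent chromatin, and H3.3 is laid down in transcribed genes and at telomeres. Unlike most clustered histone genes, replacement genes give polyadenylated messages, the kind these libraries were made from.

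The total count was 17024157 and 16041022 in the GNE987 libraries and 18938465 and 18441248 in the untreated ones, and the 8 tested members had at least 956 counts in every library. The untreated libraries stood apart from each other: the chi-square of counts between the untreated libraries was 34.05 per degree of freedom, against 4.55 between the GNE987 libraries. With untreated replicate 1 set to 0% and the GNE987 mean to 100% for each tested member, the CPM of untreated replicate 2 lay at 11.6% (H2AFZ) to 27.9% (H2AFY), with a median of 20.5%. Which untreated library is the less typical cannot be told from these values. Member values are therefore given by library, and folds also without either untreated library. BRD2, a BET gene, rose (log2 fold change 1.91 ± 0.31 SE) and MYC, a transcription factor gene known to depend on BET proteins, fell (-4.32 ± 0.17), with adjusted p-values of 0.00391 and 0.000292 in the edgeR quasi-likelihood test. Untreated replicates 1 and 2 had 237.5 and 443.6 CPM of BRD2, against 1236 and 1328 CPM with GNE987. For MYC they had 341.9 and 280.5 CPM, against 15.6 CPM in each GNE987 library. The in-between position of untreated replicate 2 was thus not particular to the members. It was not computed over all tested genes. Of 9 T-cell markers 7 fell and 1 rose, beside 37.2% of all tested genes lower and 34.4% higher. LCK, the kinase of the T-cell receptor, averaged 61.0 CPM with GNE987 and 865 CPM without, and CD247, the zeta chain, 38.5 CPM with GNE987 and 213.6 CPM without. CD3E, of the same receptor, had 10914 and 11350 counts with GNE987 and 11289 and 12946 without, and was not called (adjusted p = 0.0688, edgeR). Of 5 tested myeloid markers 3 rose, and the summed level of the 7 measured ones was 141.9 and 146.6 CPM with GNE987, against 0.807 CPM (untreated replicate 1) and 29.98 CPM (untreated replicate 2). Most of that sum came from MPO (72.5 and 77.1 CPM with GNE987, against 0.0897 and 15.5 CPM without) and ITGAM (43.1 and 40.4 CPM, against 0.134 and 9.22 CPM), neither of which passed (adjusted p = 0.0702 and 0.0531, edgeR). CD14 rose, with 23.9 and 26.4 CPM with GNE987 and 0.134 and 4.49 CPM without, while CD33 had no count in either GNE987 library and 1 and 2 counts in the untreated ones. CD79A rose among B-cell markers, while PAX5 had at most 3 counts in any library. ITGA2B rose as the 1 measured erythroid and megakaryocyte marker, COL1A1 rose as 1 of 2 tested fibroblast markers, and no epithelial marker was high enough to test. The part of these other-lineage genes in the results below was not tested. In bulk RNA, fewer cells of a type and less RNA per cell cannot be told apart.

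Transcripts of 7 of the 9 replacement genes rose with GNE987 and those of 1, H2AFY, fell. H2AFJ could not be tested. For comparison, 71.6% of the 15910 tested genes were called, 34.4% higher (5467) and 37.2% lower (5920; edgeR, adjusted p below 0.05). Scaled by library size alone, 4099 genes were higher and 7165 lower. The linker histone genes had the largest fitted rises among the members, 8.38-fold for H1F0 and 8.06-fold for H1FX, followed by 4.56-fold for H2AFX and 3.87-fold for H3F3B. H2AFV and H3F3A rose 2.01-fold and 1.91-fold, and H2AFZ by less. When GNE987 replicate 1 or 2 was left out, 3 and 2 of the genes still passed as higher. Levels by library are given as CPM, counts scaled by library size and TMM factor. Such levels and their folds are relative to the other genes of a library and do not measure message per cell. Together the 9 genes took 1.41% and 1.43% of all counts in the GNE987 libraries, against 0.276% in untreated replicate 1 and 0.573% in untreated replicate 2. The median log2 fold change of the 8 tested members was 1.48 (1.16 without untreated replicate 1 and 1.83 without untreated replicate 2), beside -0.03 for all tested genes. In every tested member the GNE987 libraries lay outside the range of the untreated ones, which was also so for 44.6% of tested genes on the higher side and 46.6% on the lower side.

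**Figure D1:**
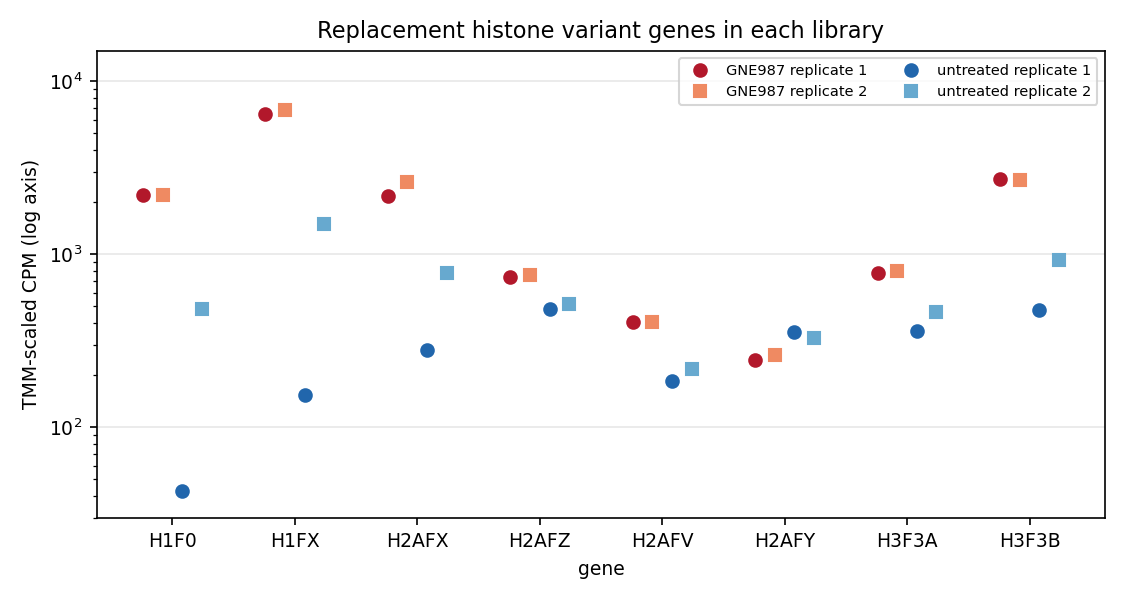
TMM-scaled CPM (log axis) of the 8 tested genes in each of the 4 libraries, with GNE987 replicates in red and orange and untreated replicates in blue. The GNE987 points lie above the untreated ones in every gene except H2AFY, and the untreated points of H1F0 (42.9 and 486 CPM) and H1FX (153.9 and 1504 CPM) lie far apart.

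The linker histone genes changed by similar folds. H1F0, on chromosome 22 from 37805093 to 37807436, had 2215 and 2213 CPM in the GNE987 libraries, against 42.9 and 486 CPM in untreated replicates 1 and 2. Both GNE987 libraries were above both untreated ones and almost equal to each other, while the untreated pair differed by 3.50 on the log2 scale. The log2 fold change was 3.07 ± 1.05 (SE), with an adjusted p of 0.0429 (edgeR quasi-likelihood test, Benjamini-Hochberg). H1FX, on chromosome 3 from 129314771 to 129316277, had 6501 and 6861 CPM with GNE987, against 153.9 and 1504 CPM in untreated replicates 1 and 2. The groups did not overlap here either, and the log2 fold change was 3.01 ± 1.00 (adjusted p = 0.0388). H1FX alone took 0.583% and 0.591% of all counts in the GNE987 libraries, against 0.0181% in untreated replicate 1 and 0.165% in untreated replicate 2. The ratio of H1FX to H1F0 FPKM was 4.57 and 4.82 with GNE987 and 5.59 and 4.81 without, a narrow range beside the change of either gene.

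The size of these rises depended on the untreated library. H1F0 had a log2 fold change of 5.70 and H1FX one of 5.45 without untreated replicate 2, while leaving out untreated replicate 1 gave 2.12 and 2.09. Neither gene passed with robust estimation in edgeR (adjusted p = 0.178 for H1F0 and 0.168 for H1FX), without GNE987 replicate 1 (0.127 and 0.116) or without GNE987 replicate 2 (0.128 and 0.122). When a GNE987 library is left out, the lone one is assumed to vary like the untreated pair. When an untreated library is left out, the lone one is assumed to vary like the closer GNE987 pair. In the authors' deposited table the adjusted p was 0.0229 for H1F0 and 0.0214 for H1FX.

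H2AFX, whose product is phosphorylated beside DNA breaks, lies on chromosome 11 from 119093854 to 119095467. It had 2173 and 2633 CPM with GNE987, against 279.6 and 775.3 CPM in untreated replicates 1 and 2. Both GNE987 libraries stood above the higher untreated one, so the groups did not overlap. The log2 fold change was 2.19 ± 0.48, with an adjusted p of 0.0106 (edgeR). It was 3.11 without untreated replicate 2 and 1.57 without untreated replicate 1, and the gene did not pass without GNE987 replicate 2 (adjusted p = 0.0643). H2AFX is known to give both a polyadenylated message and one that ends at a stem-loop, as the clustered genes do. Among the coding transcripts of GENCODE release 29 it was the only 1 of the 9 genes with a match to the histone stem-loop consensus, which was found in 48.4% of 64 clustered histone genes and 0.218% of 16075 coding genes. The element is shown with its paired arms in capitals, on the minus strand at chr11:119094898-119094913 (GRCh38), with 1044 bases of annotated transcript after it.
H2AFX stem-loop: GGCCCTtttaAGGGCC
A poly(A) signal (AATAAA or ATTAAA in the last 50 bases) was found in a coding transcript of 8 of the 9 genes, in 34.4% of the clustered genes and in 85.6% of all coding genes.

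**Figure D2:**
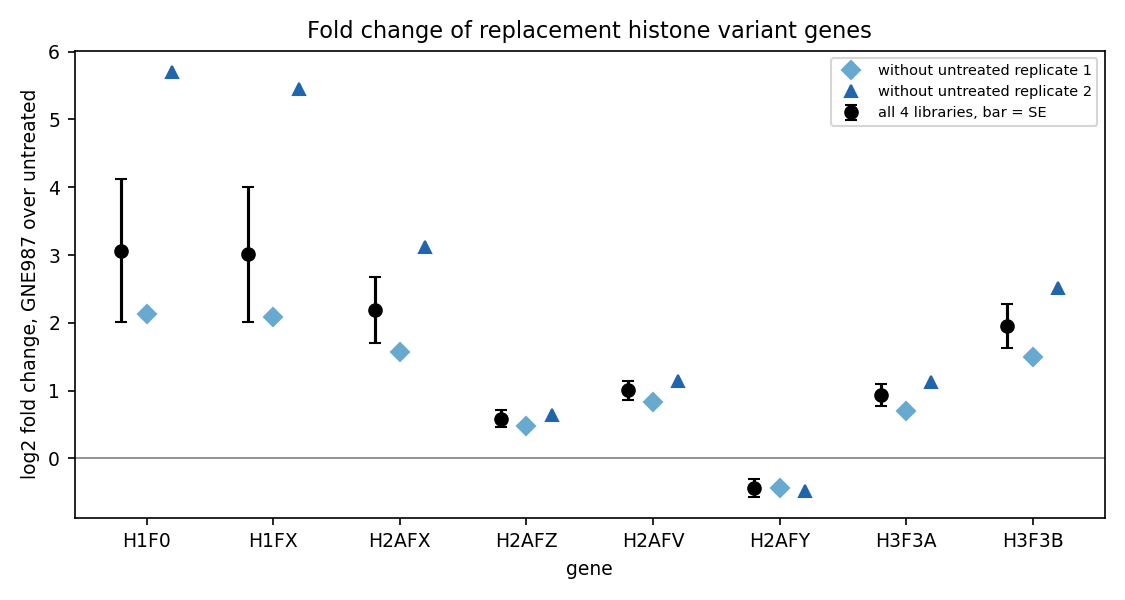
Log2 fold change of GNE987 over untreated for the 8 tested genes, from all 4 libraries (black, bar = standard error) and with either untreated library left out (diamonds without replicate 1, triangles without replicate 2). The estimates for H1F0 run from 2.12 to 5.70 and those for H2AFZ only from 0.48 to 0.64.

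H3F3A and H3F3B encode the same H3.3 protein from 2 loci. H3F3B, on chromosome 17 from 75776434 to 75785893, had 2714 and 2695 CPM with GNE987, against 476.1 and 921.4 CPM in untreated replicates 1 and 2. The GNE987 libraries were nearly equal and above both untreated ones, with a log2 fold change of 1.95 ± 0.33 and an adjusted p of 0.00423 (edgeR); the change was 2.52 without untreated replicate 2 and 1.49 without untreated replicate 1. This call held under all 8 alternatives that kept the 4 libraries. H3F3A, on chromosome 1 from 226061851 to 226072001, had 778.6 and 800.2 CPM with GNE987, against 362.3 and 463.6 CPM in untreated replicates 1 and 2. The groups did not overlap, and the log2 fold change of 0.93 ± 0.17 (adjusted p = 0.00507, edgeR) was 0.70 without untreated replicate 1 and 1.13 without untreated replicate 2. H3F3A did not pass when either GNE987 library was left out (adjusted p = 0.0518 without replicate 1 and 0.0573 without replicate 2).

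The balance of the H3.3 genes was then compared. The deposited FPKM divides counts by exon length and by a scale for each library. That scale followed the authors' size factors (0.879 and 0.793 with GNE987, 1.27 and 1.18 without) and not the total counts. On this FPKM scale the H3.3 genes summed to 681.4 and 687.6 with GNE987, against 193.3 in untreated replicate 1 and 290.1 in untreated replicate 2. H3F3B gave 64.1% and 63.3% of this sum in the GNE987 libraries, against 40.3% in untreated replicate 1 and 50.5% in untreated replicate 2. The groups did not overlap, and the mean share was 18.4 percentage points higher with GNE987. An exact two-sided permutation test gave p = 0.333, the smallest value that 2 against 2 libraries allow. Reads of H3F3A can be split with processed copies of it. H3F3AP4 had 1985 and 2072 counts with GNE987 and 1534 and 1738 without, 16.7% to 19.0% of the counts of H3F3A itself, and H3F3AP6 had 5.29% to 7.23% of them. With the counts of both copies added to H3F3A, an alternative chosen after the data were seen, the share was 59.4% and 58.0% with GNE987 and 34.9% and 44.8% without. How the authors' counting placed such reads is not known, so counts of H3F3A and these copies are uncertain.

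**Figure D3:**
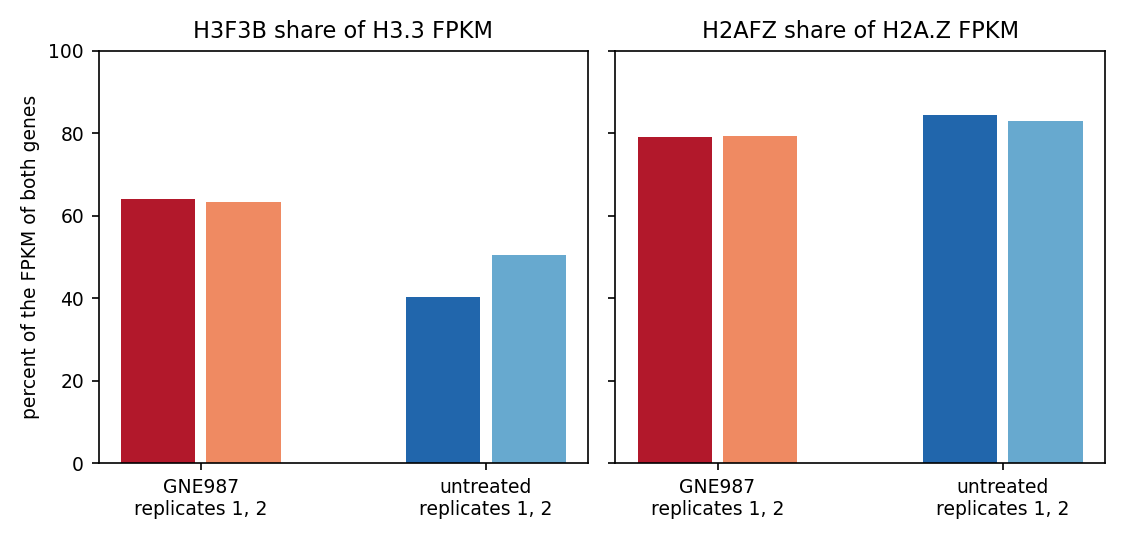
Share of H3F3B in the FPKM of the H3.3 genes (left) and of H2AFZ in the FPKM of the H2A.Z genes (right), as a bar for each library, on an axis from 0 to 100%. The GNE987 bars for H3F3B (64.1% and 63.3%) stand above the untreated ones, and those for H2AFZ (79.0% and 79.4%) below.

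The upstream sequences of the H3.3 genes are shown because these genes give the same protein from 2 loci with fitted rises of 3.87-fold and 1.91-fold, and those of H1FX and H2AFX because their fitted folds were the largest of the members with an entry. They are the 250 bases before the RefSeq start (GRCh38.p14), on the strand of the gene, at chr17:75779780-75780029 (minus), chr1:226062466-226062715 (plus), chr11:119095466-119095715 (minus) and chr3:129316287-129316536 (minus). Capitals mark the CCAAT box, the GC box (GGGCGG) and the TATA box (TATAAA), on either strand. H1F0 had no entry.
H3F3B: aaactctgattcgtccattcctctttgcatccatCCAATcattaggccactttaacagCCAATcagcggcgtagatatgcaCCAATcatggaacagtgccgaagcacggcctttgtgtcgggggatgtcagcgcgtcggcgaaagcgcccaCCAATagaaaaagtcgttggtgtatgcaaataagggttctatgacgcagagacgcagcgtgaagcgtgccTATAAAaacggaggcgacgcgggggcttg
H3F3A: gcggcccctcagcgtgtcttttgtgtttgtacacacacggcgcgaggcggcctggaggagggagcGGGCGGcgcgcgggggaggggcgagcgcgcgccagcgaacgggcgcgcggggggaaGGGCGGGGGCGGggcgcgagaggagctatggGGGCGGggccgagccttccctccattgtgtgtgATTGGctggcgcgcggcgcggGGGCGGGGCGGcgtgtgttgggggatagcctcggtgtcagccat
H2AFX: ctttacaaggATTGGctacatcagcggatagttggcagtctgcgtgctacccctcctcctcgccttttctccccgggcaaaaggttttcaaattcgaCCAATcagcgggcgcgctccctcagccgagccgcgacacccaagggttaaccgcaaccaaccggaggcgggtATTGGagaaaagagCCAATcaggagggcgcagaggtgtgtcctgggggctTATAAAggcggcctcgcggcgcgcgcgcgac
H1FX: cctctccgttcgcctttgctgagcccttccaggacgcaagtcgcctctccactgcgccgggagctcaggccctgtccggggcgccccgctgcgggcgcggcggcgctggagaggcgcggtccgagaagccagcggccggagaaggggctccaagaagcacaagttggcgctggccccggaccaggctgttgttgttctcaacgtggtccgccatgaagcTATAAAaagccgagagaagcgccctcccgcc
H3F3B held 4 CCAAT and a TATAAA that began 29 bases before the start. H3F3A, at the start nearest to a GENCODE coding transcript, held 6 GGGCGG, of which the last pair overlapped by 1 base, and 1 CCAAT, with no TATAAA in the window. H2AFX held 4 CCAAT and H1FX none in the window, and both had a TATAAA that began 31 bases before the start.

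Over windows from 250 bases before to 50 after the start, searched on both strands, 7 of 8 members held CCAAT, against 34.6% of 35116 RefSeq windows. TATAAA was found in 4 of 8 (H1FX, H2AFX, H2AFZ and H3F3B), against 11.5%, and GGGCGG in 4 of 8, against 45%. TGACGTCA, CACGTG, TTTCGCGC and TTCCCGCC were found in no window used for a member, and in 1.85%, 7.26%, 0.515% and 3.16% of all windows. A match is a run of letters and not a shown binding site.

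The H2A.Z genes had fitted rises of 2.01-fold or less. H2AFZ, on chromosome 4 from 99948086 to 99950388, had 739.9 and 759.4 CPM with GNE987, against 483.9 and 514.7 CPM in the untreated libraries. The libraries of each group were close and the groups did not overlap, with a log2 fold change of 0.59 ± 0.13 (0.48 and 0.64 without untreated replicate 1 or 2) and an adjusted p of 0.00981 (edgeR). This call was lost with library size alone as the scaling (log2 fold change 0.21, adjusted p = 0.155) and when GNE987 replicate 1 (0.0944) or GNE987 replicate 2 (0.110) was left out. H2AFV, on chromosome 7 from 44826791 to 44848083, had 405.1 and 406.0 CPM with GNE987, against 185.6 and 218.4 CPM in the untreated libraries. The libraries of each group were again close and the groups did not overlap. The log2 fold change was 1.01 ± 0.14 (0.83 and 1.14 without untreated replicate 1 or 2), with an adjusted p of 0.00255 (edgeR). The gene passed under all 8 alternatives that kept the 4 libraries. H2AFZ gave 79.0% and 79.4% of the H2A.Z FPKM with GNE987, against 84.3% and 82.9% without, a mean difference of -4.41 percentage points (exact permutation p = 0.333, the smallest possible). The difference was -6.88 points with the lengths of the principal transcripts, an alternative chosen after the data were seen. On those lengths the H2AFZ share itself was 58.4% and 59.0% with GNE987, against 66.7% and 64.4% in untreated replicates 1 and 2. The level of the share thus depends on the length used.

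H2AFY, the macroH2A1 gene on chromosome 5 from 135333900 to 135399914, was the member that fell. It had 244.4 and 260.3 CPM with GNE987, against 355.8 and 327.0 CPM in the untreated libraries. The groups did not overlap, and the log2 fold change was -0.44 ± 0.13 (-0.44 and -0.49 without untreated replicate 1 or 2) with an adjusted p of 0.0266 (edgeR). The direction held under the 12 alternatives run, from -0.81 to -0.24. The call held in 4 of the 8 that kept the 4 libraries. It was lost with RLE size factors (adjusted p = 0.0560), upper-quartile scaling (0.163), a filter of 10 CPM (0.0946) and the replicate number as a block (0.0589). It was also lost without GNE987 replicate 1 (0.209) and without GNE987 replicate 2 (0.143). An antisense gene, C5orf66, overlaps 28.0% of the annotated exon bases of H2AFY and had at most 20 counts in any library.

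H2AFJ, on chromosome 12 from 14774383 to 14778002, encodes a variant known to accumulate in senescent human fibroblasts. It had 4 and 3 counts with GNE987 and 0 and 4 without. These are at about the floor of 3 counts per library (0.158 to 0.187 CPM over the 4 libraries), so no fold is given. Among annotated neighbours, UNK shares 3.49% of the exon bases of H3F3B and had 208 and 217 counts with GNE987 and 956 and 693 without. H1FX-AS1, antisense to H1FX over 22.9% of its exon bases, had 31 and 39 counts with GNE987 and 6 and 6 without, at most 0.175% of the H1FX counts. The labels name no strand-marking kit, and reads of the shared bases cannot be told apart.

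On the FPKM scale the order of the levels differed between the groups. With GNE987 it was H1FX (mean 4386 FPKM), H2AFX (1473), H1F0 (935), H3F3B (436), H2AFZ (322), H3F3A (248), H2AFV (84.5) and H2AFY (14.1), and the ranges of neighbours did not overlap. In untreated replicate 1 the highest was H2AFZ at 210.7 FPKM, followed by H2AFX at 173.7, and H1F0 was last of the tested genes at 18.3 FPKM. In untreated replicate 2 H1FX led at 972.8 FPKM and H1F0 stood above both H3.3 genes at 202.1 FPKM. Over the untreated pair, only H2AFZ against H3F3A and H2AFV against H2AFY had ranges that did not overlap with the next gene in the order. The deposited FPKM uses the union of all annotated exons as the length, 17730 bases for H2AFY, which lowers its value relative to genes with short unions. The union was 6134 bases for H3F3B, 4749 for H2AFV and 2303 for H2AFZ. Their longest principal coding transcripts had 2705, 752 and 979 bases. The union of the single-exon gene H1F0 was 2344 bases. The order of levels between genes thus depends on the length used, and no order on other lengths was made.

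The genes that place or remove these histones mostly fell. Of 42 chaperones and remodellers 29 were lower with GNE987 and 8 higher, with a median log2 fold change of -1.08, beside 37.2% lower and 34.4% higher and a median of -0.03 over all tested genes. The median was -1.06 and -1.11 without untreated replicate 1 or 2. DAXX, a chaperone that delivers H3.3 to silent repeats with ATRX, had 15.7 ± 0.86 CPM with GNE987 and 93.1 ± 11.9 CPM without (SD, n = 2), a log2 fold change of -2.56 ± 0.15. VPS72, the subunit of the SRCAP complex that binds H2A.Z, was at -3.27 ± 0.17, DMAP1, shared by the SRCAP and TIP60 complexes, at -3.77 ± 0.20, and MEAF6, of the TIP60 acetyltransferase complex, at -3.77 ± 0.17. Adjusted p-values of these 4 genes ran from 0.000292 to 0.000298 (edgeR).

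By complex, a grouping made after the values were seen, 7 of 8 SRCAP genes and 6 of 7 genes for H2A.Z removal were lower. SRCAP itself, the ATPase, had 28 and 29 counts with GNE987 and 54 and 41 without (log2 fold change -0.18, adjusted p = 0.646, edgeR). Of the TIP60 and EP400 genes 7 of 11 were lower and 2 higher. Each gene was placed in only 1 group. DMAP1, YEATS4, RUVBL1 and RUVBL2, shared by the SRCAP and TIP60 complexes, were counted with SRCAP alone, and all were called lower. The counts of these groups depend on that placing. The 3 genes grouped here as the DAXX route (DAXX, ATRX and the chaperone DEK) were lower. The 5 of the HIRA route, which loads H3.3 in active genes, were split, with 2 higher, 1 lower and 2 that did not pass. UBN1 and the chaperone ASF1A were higher, at 1.78 ± 0.25 and 1.06 ± 0.16, and HIRA was lower at -0.82 ± 0.12. Of the replication and general chaperones 5 of 8 were lower, among them both large subunits of CAF-1, CHAF1A at -1.41 ± 0.15 and CHAF1B at -2.09 ± 0.15, while ASF1B was higher at 2.01 ± 0.38. These genes beyond DAXX, VPS72, DMAP1 and MEAF6 were singled out after their values were seen.

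**Figure D4:**
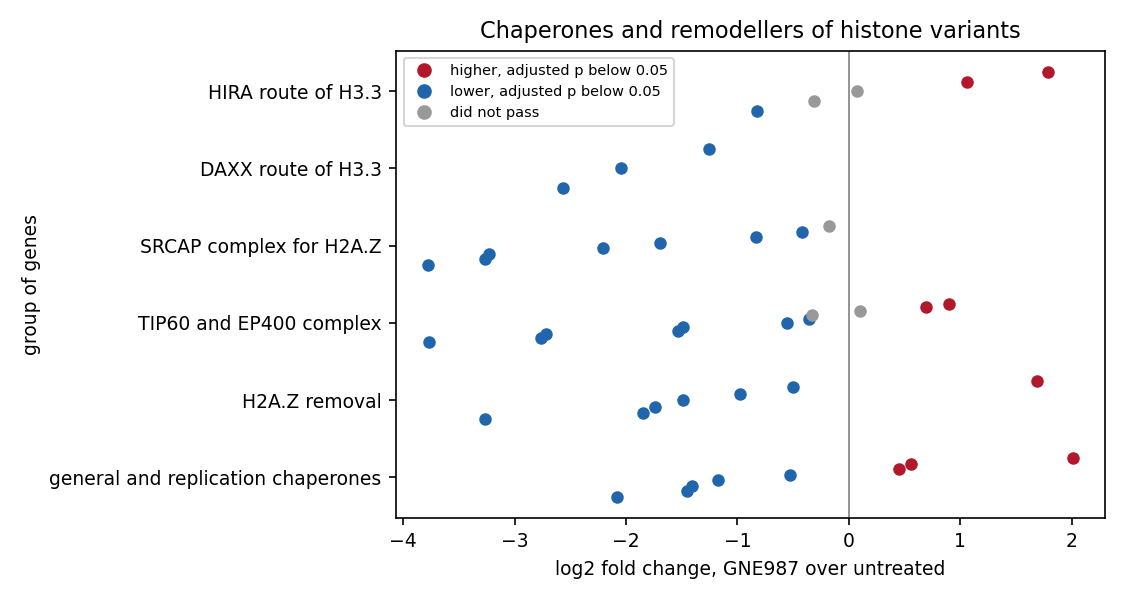
Log2 fold change of GNE987 over untreated for 42 chaperones and remodellers of histone variants, by complex, with a point for each gene (red higher, blue lower, grey did not pass an adjusted p of 0.05). Points of the SRCAP group lie between -3.77 and -0.18, and those of the HIRA route between -0.82 and 1.78.

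Among other variant genes, CENPA, the centromeric H3 variant, had 532 ± 7.74 CPM with GNE987, against 39.9 and 150.3 CPM in untreated replicates 1 and 2, a log2 fold change of 2.48 ± 0.60 (adjusted p = 0.0144, edgeR). H2AFY2, which encodes macroH2A2, had 7 and 11 counts with GNE987 and 26 and 25 without (adjusted p = 0.122, edgeR), and H3F3C, H1FNT, H2AFB3 and H2BFWT were too low to test. Of 60 tested rows of the HIST clusters 39 were called higher, beside 34.4% of all tested genes, with a median log2 fold change of 3.31. The median was 2.26 without untreated replicate 1 and 7.87 without untreated replicate 2. No such gene was called without GNE987 replicate 1, where 12 had an unadjusted p below 0.05, and 1 was called without GNE987 replicate 2 (edgeR). Their summed level was 5501 and 5466 CPM with GNE987, against 23.9 and 1145 CPM in untreated replicates 1 and 2. The summed level of the 9 replacement genes was 15772 and 16628 CPM with GNE987, against 2340.0 and 5210.2 CPM without. These libraries were made from polyadenylated RNA, and most clustered genes give messages without a poly(A) tail. The sum of the HIST clusters is thus no measure of all their messages, and the levels of the 2 sums cannot be compared directly.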

How the data were processed

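The deposited table gives a whole-number count for each gene in each library, unnormalized to judge from its values and column names. The deposited normalized signal matched the counts after division by a size factor for each library (within 0.01), and the deposited FPKM followed the union exon length of GENCODE release 29 within 1 percent for 99.98% of genes. All 26733 identifiers matched that release, which gave positions on GRCh38. A log2 fold change and p-values stood in the authors' deposited table as well; their test is not named there. Per the submitters' processing notes, HISAT2 2.2.0 and the build hg38 were used; what counted the reads, with which annotation and strand setting, is not given in the sources used here. Per the labels' protocols, TRIzol was used for extraction and a TruSeq RNA kit for the libraries.

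The members and lists were chosen with earlier results of these data known. Counts were filtered with filterByExpr (minimum count 10, minimum total 15; 15910 genes kept), scaled by TMM and tested with the quasi-likelihood test of edgeR 4.0.16 in R 4.3.3, as GNE987 over untreated (2 residual degrees of freedom), with Benjamini-Hochberg adjustment over all tested genes and a threshold of 0.05. CPM values are TMM-scaled, and the SE is the log2 fold change divided by the square root of F. The floor of 3 counts covers counting error only, since no molecular identifiers are described. Whether replicates were separate cultures is not in the labels; if they were not, p-values reflect technical spread between these samples alone. The fit was tested on simulated data with an equal spread in all libraries and few changed genes. That test does not cover the unequal spread of the pairs or the many changed genes seen here. Named genes are the 9 members, BRD2 and MYC, up to 4 of each list with the smallest p and a mean of at least 10 CPM, and the 2 genes nearest to each member in profile; others are marked. Not every gene under the rule is given. Alternatives were RLE, upper-quartile and library-size scaling, no filter, a filter of 10 CPM in 2 libraries, DESeq2 1.42.0, robust estimation, a replicate block, each library left out, and other length scales for shares. List entries without a row were not analysed here. Promoter sequences are RefSeq's, matched for 8 of 9 members. The stem-loop and exon-number searches were chosen after the values were seen.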

Additional observations from a re-analysis of the deposited data

How the results depend on the processing

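Of the 9 genes, 7 were higher under every alternative with 4 libraries except library size alone (6) and robust estimation (5), and 2 to 7 with a library left out (3 without GNE987 replicate 1 and 2 without GNE987 replicate 2). The 1 lower gene, H2AFY, was not called with RLE factors, upper-quartile scaling, a filter of 10 CPM or the replicate block (0 lower by edgeR in each; at an unadjusted p below 0.05, 1 with RLE factors and with the block and 0 with the others; 1 by DESeq2), and with a library left out 0 to 1 were lower. No member changed direction under the alternatives run. Calls with a library left out rest on a lone library in its group, assumed to vary like the other pair. Library size alone moved the median of all tested genes to -0.41, against -0.03 with TMM, and called 5 chaperones and remodellers higher in place of 8 (3 to 8 with a library left out). The count of genes called higher ran from 2206 to 6816 with a library left out. That of histone processing genes ran from 3 to 5. Clustered histone genes called higher numbered 14 with a filter of 10 CPM, which tests fewer genes, 24 with DESeq2 and 20 with robust estimation. They ran from 0 (without GNE987 replicate 1, edgeR, where 12 had an unadjusted p below 0.05) to 62 with a library left out. The H2AFZ share differed by -6.35 points on raw counts and by -6.88 with principal transcript lengths, against -4.41 on FPKM. Apart from these constructions the cause was not tested. Replicate numbers gave no sign of a pairing: the deviations of same-numbered libraries correlated at -0.0059 across genes. With 2 libraries a group this cannot exclude that same-numbered libraries shared a culture or day. With the replicate block 7 of the 9 genes were higher, with 4534 genes higher and 5267 lower in all. With 2 libraries a group, spread within the untreated pair limits the precision of H1F0 and H1FX more than depth does.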

Other observations

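Of 13 measured genes of histone mRNA processing 5 were higher and 7 lower with GNE987, beside 34.4% higher and 37.2% lower over all tested genes, so the number higher was near that background. Their median log2 fold change was -0.61. CASP8AP2, which is needed for histone gene transcription, had 39.0 ± 0.34 CPM with GNE987 and 19.7 ± 0.29 CPM without (SD, n = 2), a log2 fold change of 0.99 ± 0.12. CPSF2 and CSTF2, of the complexes that cut the 3' ends of messages, were at -3.62 ± 0.18 and -2.85 ± 0.16, and LSM10, of the U7 particle that processes histone messages, at -1.16 ± 0.13. SLBP, the protein that binds the histone stem-loop, was at 1.34 ± 0.20; it was picked with its values known. Adjusted p-values of these 5 genes ran from 0.000292 to 0.00315 (edgeR quasi-likelihood test).

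Profiles over the 4 libraries were compared by the distance between log2 CPM values centred on each gene's mean, among 3583 other genes that averaged 50 CPM or more. The nearest to H1F0 were SERTAD1 (distance 0.227) and JUN (0.249), and to H1FX they were HIST3H2A (0.186) and SERTAD1 (0.200). H3F3B lay nearest to SRSF5 and MCL1 (0.0302 and 0.0305), H3F3A to NUTF2 and MIB2 (0.0184 and 0.0255), and H2AFX to NEU1 and INTS5 (0.106 and 0.117). H2AFZ lay nearest to HINT1 and LRPAP1, H2AFV to PITPNM1 and UBE2O, and H2AFY to RAB7A and TPGS2, at 0.0134 to 0.0310. With 4 libraries such closeness is a description only.

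H1F0, H1FX and H2AFX, which had the largest folds among the members, are also the tested members whose coding transcripts all have a single exon in GENCODE release 29. Among 230 other tested coding genes with this structure, clustered histone genes left out, 53.5% were called higher and 23.9% lower, with a median log2 fold change of 0.81. Among 12542 tested coding genes with a spliced transcript, 31.5% were higher and 42.9% lower, with a median of -0.24. This split was made after the values were seen and was not tested.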
